A study of Bos taurus with 12 samples.

Results

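Transcripts of 6 genes that mark leukocytes and B cells were followed in the bovine corpus luteum, the ovarian gland that secretes progesterone. The genes were PTPRC, MS4A1, CD79A, BLK, IGHM and JCHAIN. Every probe that carried one of these genes' symbols, older symbols or descriptions was taken, apart from controls. That gave 1 probe for each gene, 6 of 15208 probes on the array, and these stood for 6 of 6759 gene symbols. The tissue came from 12 Japanese-Black cows, each profiled on its own array with Cy3-labelled RNA. Of the cows, 4 were 18 days pregnant (P18), 4 were 15 days pregnant (P15) and 4 were not pregnant and on day 15 of their cycle (NP15). Days of pregnancy count from 1, the day of insemination. The samples were whole tissue from slaughtered animals of a single breed, with no sorting of cells. The design asks how the gland differs between pregnant and cyclic cows on day 15, and between the later and the earlier day of gestation. P18 differs from NP15 in both day and pregnancy.

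B cells are lymphocytes that recognise antigen through a membrane immunoglobulin, the B cell receptor, and that mature into antibody-secreting plasma cells. PTPRC encodes CD45, a membrane tyrosine phosphatase carried by nucleated blood-derived cells, in which it sets the activity of Src-family kinases. MS4A1 encodes CD20, a surface protein of B cells that plasma cells lose. CD79A encodes Ig-alpha, the subunit that couples the B cell receptor to its kinases, and BLK encodes a Src-family kinase of B cells. IGHM encodes the constant region of the mu heavy chain of IgM, made by B cells and by IgM plasma cells. JCHAIN encodes the joining chain that links IgM and IgA into polymers, and it marks plasma cells. The corpus luteum holds resident and recruited macrophages and lymphocytes, and leukocyte numbers are known to grow when the gland regresses.

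Each measurement rests on a single 60-base probe, so the probe sequences of the 5 B cell genes are shown here as the array design gives them, 5′ to 3′ and in the files' sense. MS4A1 and IGHM are printed whole, and for CD79A, BLK and JCHAIN bases 31 to 60 are printed. Capitals in the CD79A probe mark AATAAA, the hexamer of the polyadenylation signal. The search ran over whole probes for AATAAA and for its reverse complement TTTATT, which do not overlap each other. AATAAA was found in 11.3% of all 15208 probes and TTTATT in 4.14%, and of the 6 probes only that for CD79A held either. No probe of the 6 shared a run of more than 15 bases with any other probe on the array.
MS4A1: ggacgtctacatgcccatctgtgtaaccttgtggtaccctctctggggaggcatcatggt
CD79A: tagtgatAATAAAtccttcccaacggcaaa
BLK: tgcgctcagcactttgggacttttcggaaa
IGHM: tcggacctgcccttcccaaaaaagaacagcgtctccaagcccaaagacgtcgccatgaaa
JCHAIN: ttatgtactccaaaatatgtattctctagc

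The probe sequences differed in base composition, with a GC content of 30% for JCHAIN, 50% for CD79A, 53.3% for IGHM and 55% for MS4A1 and BLK. Signals of different probes are therefore not set against each other here. All values are log2 signals relative to the array's own 75th percentile, so that a value below 0 is a signal under that percentile.

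The P18 arrays stood apart from the rest. They lay on a slide of their own with a scan of their own, and P15 and NP15 filled separate rows of the other slide, so slide and scan cannot be told apart from P18. The share of probes called well above background by the scanner software averaged 70.4% ± 2.19 in P18, 78.4% ± 2.44 in P15 and 83.3% ± 2.59 in NP15 (SD, n = 4 each). The net signal of the negative controls ran from 78.8 to 92.2 on P18 arrays, from 32.1 to 36.4 on P15 arrays and from 34.7 to 38.5 on NP15 arrays. The lowest value well above background was accordingly −6.08 to −5.36 on P18 arrays, −7.56 to −6.74 on P15 arrays and −8.09 to −7.34 on NP15 arrays. The luteal markers, such as STAR and CYP11A1 of steroid synthesis, were well above background on all 12 arrays for all 10 genes listed.

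CD79A, BLK, IGHM and JCHAIN were well above background on all 12 arrays. PTPRC was so on all P15 and NP15 arrays and on no P18 array. MS4A1 was so on no P18 array, on 1 of 4 P15 arrays and on 3 of 4 NP15 arrays. All 6 probes passed the filter for testing, which asked for 3 arrays of a group above background, but MS4A1 passed it through NP15 alone. PTPRC was lower in P18 than in both other groups, CD79A, BLK, IGHM and JCHAIN passed the test in no comparison, and several of the probes varied widely between animals of the same group.

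**Figure D1:**
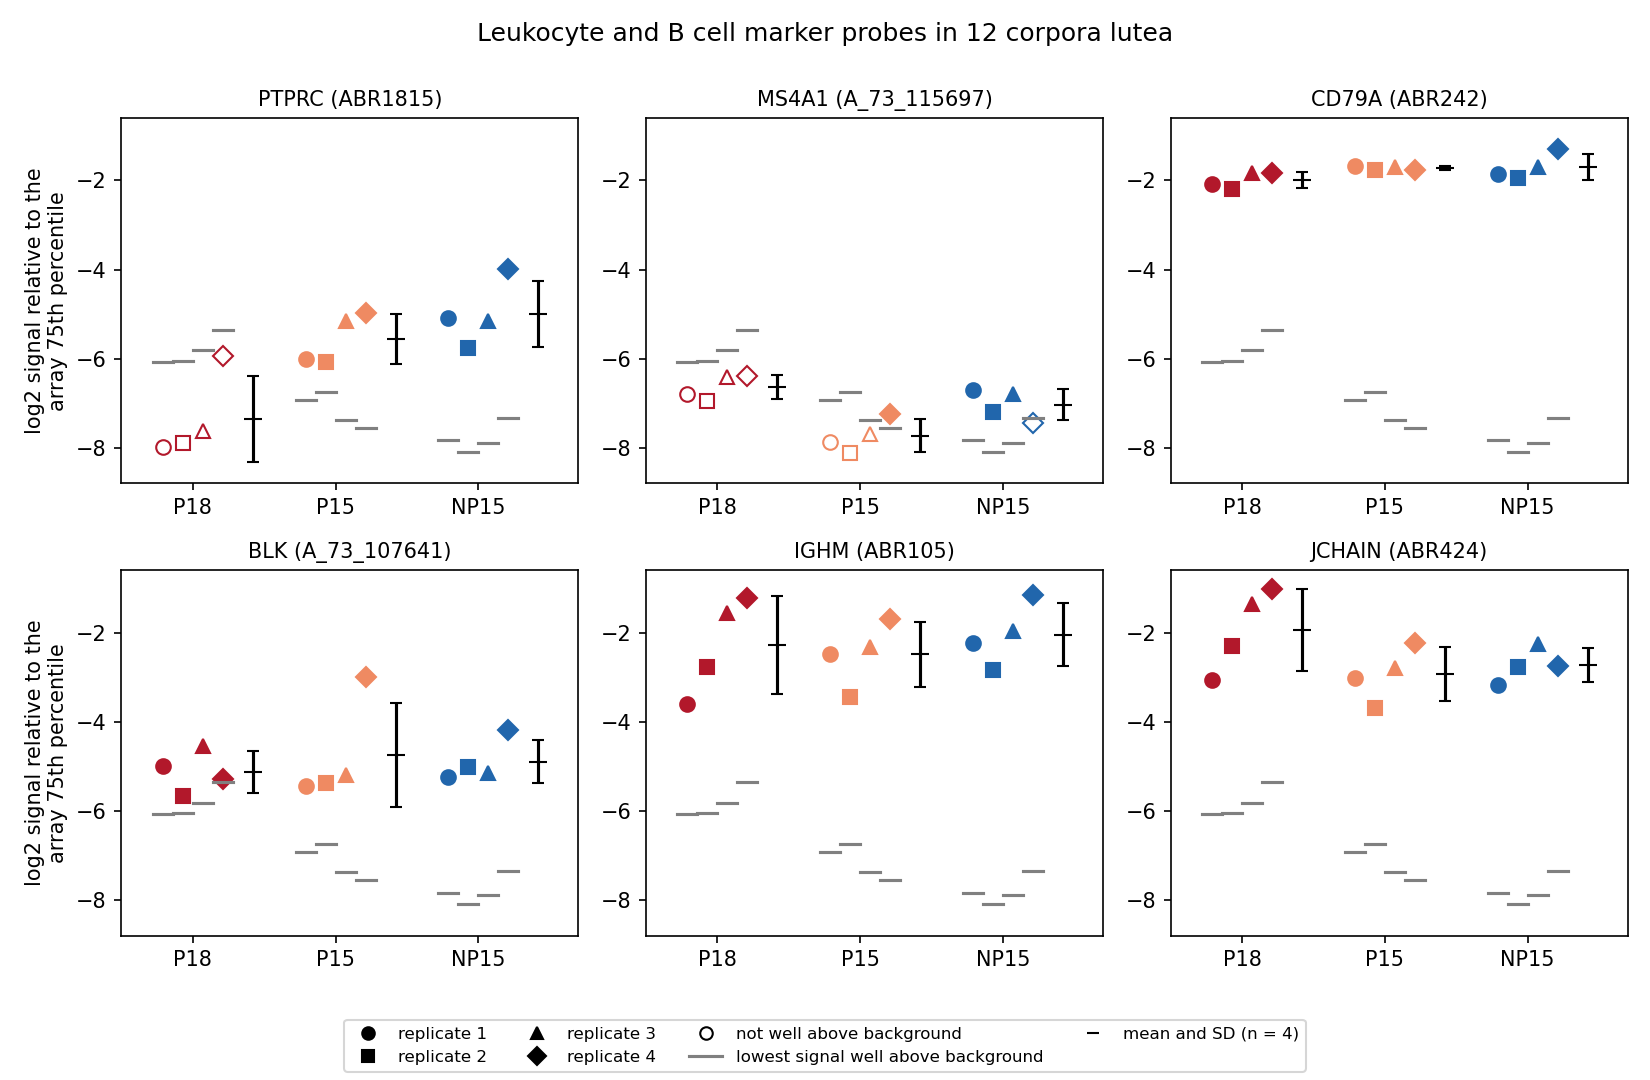
Each panel plots the log2 signal of 1 probe relative to the array's 75th percentile (y axis) for the P18, P15 and NP15 arrays (x axis), with replicates 1 to 4 as separate symbols and the group mean and SD beside them. Open symbols are signals not well above background and grey dashes the lowest signal that was; PTPRC and MS4A1 are open on all 4 P18 arrays, and BLK has a single P15 array at −2.99.

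PTPRC, the pan-leukocyte gene, had values of −8.00, −7.91, −7.62 and −5.93 in P18 corpora lutea, against −6.00, −6.07, −5.16 and −4.98 in P15 and −5.09, −5.76, −5.16 and −3.98 in NP15. The linear processed signals were 13.9, 14.8, 15.2 and 52.5 in P18, 41.4, 56.0, 103.1 and 103.4 in P15, and 102.4, 77.4, 93.9 and 181.7 in NP15. All P18 values lay below all NP15 values, while replicate 4 of P18 lay within the range of P15. The group means were −7.36 ± 0.97 in P18, −5.55 ± 0.56 in P15 and −5.00 ± 0.74 in NP15 (SD, n = 4 each). PTPRC fell in P18 relative to NP15 by a fitted log2 change of −2.37 (SE 0.50, limma adjusted p = 0.00458). Because no P18 array measured it above background, this stands as at least 1.78-fold lower, where each P18 array enters at its lowest signal well above background, or at the probe's signal if that is higher. With another background correction (normexp, with an offset of 50 added to each signal) the log2 change was −1.003. The offset by itself shrinks log2 differences between signals as dim as these, and its part was not tested. Relative to P15 it fell by a fitted −1.81 (SE 0.50, limma adjusted p = 0.0184), a bound of at least 1.21-fold lower, and by −0.69 with normexp correction (limma adjusted p = 0.0241). That second call was lost without P15 replicate 3 or 4 or without P18 replicate 1 or 2, with limma adjusted p between 0.0501 and 0.0513. Between P15 and NP15 the log2 difference was −0.56 (95% interval −1.65 to 0.54, limma adjusted p = 0.819). In whole tissue, fewer cells of a type and less RNA per cell cannot be told apart.

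The fall of PTPRC came on the arrays with the higher background, where 490 of the 2363 probes called lower than in NP15 were likewise not above background on any P18 array. The part of the slide, of the scan and of the background in it was not tested.

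MS4A1, the CD20 gene, had values of −6.79, −6.95, −6.42 and −6.40 in P18, −7.88, −8.12, −7.68 and −7.25 in P15, and −6.70, −7.21, −6.79 and −7.44 in NP15. The P18 values were all higher than the P15 values and overlapped those of NP15. The group means were −6.64 ± 0.27 in P18, −7.73 ± 0.37 in P15 and −7.03 ± 0.35 in NP15 (SD, n = 4 each). Between P18 and P15 the difference of 1.09 passed the threshold (SE 0.22, limma adjusted p = 0.00427). It compares signals not well above background, however: every P18 value lay under the lowest signal well above background of its own array, and only P15 replicate 4 lay above it. No fold is therefore given. With normexp correction the difference was 0.11 (limma adjusted p = 0.373). The normexp offset of 50 is above every processed signal of MS4A1, of which the highest was 37.95. It therefore shrinks the MS4A1 differences by itself. The difference was 0.39 between P18 and NP15 (95% interval −0.10 to 0.88, limma adjusted p = 0.22). Between P15 and NP15 it was −0.70 (95% interval −1.20 to −0.21, unadjusted p = 0.00959, limma adjusted p = 0.287) and −0.15 with normexp correction (limma adjusted p = 0.746), in a region of the array where probes as a whole were shifted by −0.22. The local shift at the other 5 probes ranged from −0.10 to 0.02 in that comparison.

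CD79A, the signalling subunit of the B cell receptor, was the steadiest of the 6. It had values of −2.09, −2.19, −1.83 and −1.83 in P18, −1.68, −1.77, −1.70 and −1.76 in P15, and −1.86, −1.95, −1.70 and −1.29 in NP15. The P15 animals lay within 1.06-fold of each other, and only 1.81% of the probes tested had a smaller SD in that group. All P18 values were below all P15 values, by a small margin. The log2 difference between P18 and P15 was −0.26 (95% interval −0.58 to 0.06, limma adjusted p = 0.213), and between P18 and NP15 it was −0.29 (95% interval −0.61 to 0.04, limma adjusted p = 0.168). The difference of P18 from NP15 depended on the scaling. It was −0.046 with median centring, −0.13 with quantile normalization or normexp correction and −0.15 without NP15 replicate 4. Adjusting each array for its local trend over rows gave −0.49 (limma adjusted p = 0.0382), probes around CD79A being shifted by 0.20 there. Against P15 it was −0.032 with median centring. P15 and NP15 differed by −0.03 (95% interval −0.35 to 0.29).

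BLK, the B cell kinase, had values of −5.00, −5.66, −4.55 and −5.29 in P18, −5.44, −5.38, −5.19 and −2.99 in P15, and −5.24, −5.02, −5.14 and −4.19 in NP15. The groups overlapped throughout, and replicate 4 of P15 was far above the other 3 P15 animals. That animal had a processed signal of 411.4, against 61.1, 90.8 and 101.1 in the other P15 animals. The log2 difference was −0.23 for P18 against NP15 (95% interval −1.33 to 0.88, limma adjusted p = 0.768) and −0.38 for P18 against P15 (95% interval −1.48 to 0.73, limma adjusted p = 0.617). For P15 against NP15 it was 0.15 (95% interval −0.96 to 1.26, limma adjusted p = 0.952). Without P15 replicate 4, the difference of P15 from NP15 was −0.44 and that of P18 from P15 was 0.21.

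IGHM, the IgM heavy chain gene, had values of −3.61, −2.76, −1.56 and −1.21 in P18, −2.49, −3.44, −2.31 and −1.68 in P15, and −2.23, −2.84, −1.95 and −1.15 in NP15. The 3 groups covered nearly the same range. Animals of 1 group differed by up to 5.26-fold in P18, 3.39-fold in P15 and 3.23-fold in NP15. The means were −2.28 ± 1.104 in P18, −2.48 ± 0.73 in P15 and −2.04 ± 0.70 in NP15 (SD, n = 4 each). No pair of groups differed beyond this spread. The difference was −0.24 for P18 against NP15 (95% interval −1.46 to 0.98), 0.20 for P18 against P15 (−1.02 to 1.42) and −0.44 for P15 against NP15 (−1.66 to 0.78), with limma adjusted p-values of 0.778, 0.825 and 0.864. Each of these intervals reaches past 1 log2 unit in at least 1 direction, so a change of that size in IGHM was neither shown nor shown to be missing.

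JCHAIN, the gene of the joining chain, had values of −3.05, −2.30, −1.35 and −1.02 in P18, −3.03, −3.69, −2.79 and −2.23 in P15, and −3.18, −2.76, −2.25 and −2.74 in NP15. Replicates 3 and 4 of P18 were above every P15 and NP15 animal, and replicate 1 of P18 lay among them. The means were −1.93 ± 0.92 in P18, −2.93 ± 0.60 in P15 and −2.73 ± 0.38 in NP15 (SD, n = 4 each). The difference of 1.00 between P18 and P15 did not pass the adjusted threshold (95% interval 0.05 to 1.96, unadjusted p = 0.0415, limma adjusted p = 0.109). The difference of 0.80 between P18 and NP15 did not either (95% interval −0.15 to 1.76, limma adjusted p = 0.193). Both passed it without P18 replicate 1, with differences of 1.37 (limma adjusted p = 0.0245) and 1.17 (limma adjusted p = 0.0459). Leaving out other single arrays lowered them to as little as 0.70 and 0.50. Over all alternatives the limma adjusted p reached 0.259 and 0.426. With median centring the difference from P15 was 1.23 (limma adjusted p = 0.049). P15 and NP15 differed by −0.20 (95% interval −1.16 to 0.75, limma adjusted p = 0.919).

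Counted by comparison, 0 of the 6 probes were called between P15 and NP15, where limma called 123 of 12605 probes, 0.976%, with 0.579% lower and 0.397% higher. With the replicate number as a block, 75 probes were called, and again 0 of the 6. The member differences were the same in that fit. Their SEs were 0.24 for PTPRC (0.50 without the block), 0.31 for IGHM (0.55) and 0.30 for JCHAIN (0.43). They were 0.43 for BLK (0.50), 0.21 for MS4A1 (0.22) and 0.13 for CD79A (0.15). The limma adjusted p-values of the 6 with the block ran from 0.316 to 0.964. At an unadjusted p under 0.05, 1112 of all probes lay past the threshold, and of the 6 MS4A1 did, which was kept for testing through NP15 alone, the group with the higher values. Between P18 and NP15, 1 of the 6 was called (PTPRC, lower), beside 29.9% of all probes, of which 18.7% were lower and 11.2% higher. Between P18 and P15, 2 of the 6 were called (PTPRC lower and MS4A1 higher), beside 29% of all probes, 15.6% lower and 13.5% higher. Neither P18 count of members stands out from that background. The median log2 difference of the 6 was −0.23 for P18 against NP15, −0.03 for P18 against P15 and −0.32 for P15 against NP15, beside −0.06, −0.03 and −0.06 for all probes tested. The comparisons share samples, so these values are given side by side only.

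**Figure D2:**
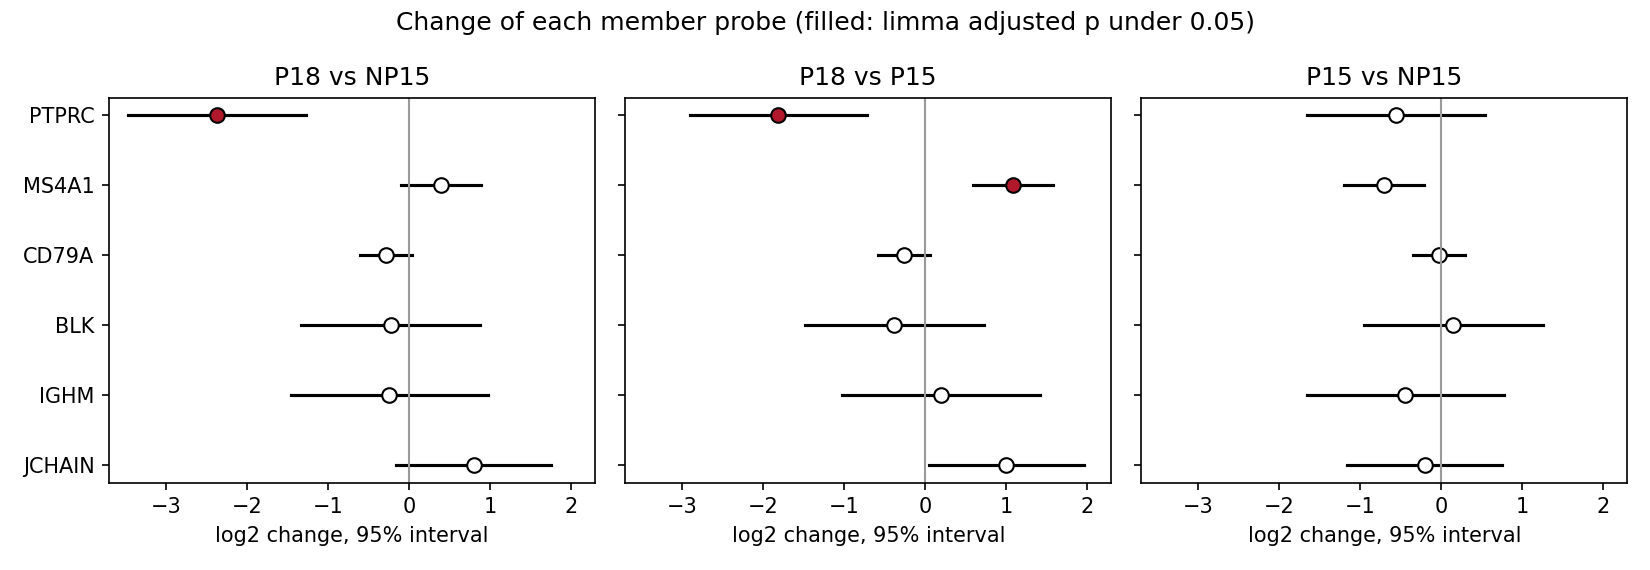
Log2 change with its 95% interval (x axis) for each of the 6 probes (y axis) in P18 against NP15, P18 against P15 and P15 against NP15, from a limma fit over all 12 arrays. Filled symbols passed an adjusted p of 0.05, which PTPRC did in both P18 comparisons and MS4A1 in P18 against P15; the other intervals shown, except those of MS4A1 in P15 against NP15 and JCHAIN in P18 against P15, include 0.

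The spread between animals of a group was itself wide for most of these genes. The pooled within-group SD was 0.86 for IGHM, 0.78 for BLK, 0.77 for PTPRC and 0.67 for JCHAIN, against a median of 0.27 over the probes tested. Of the probes tested, 94.1% had a smaller SD than IGHM, 92.2% than BLK, 92.0% than PTPRC and 88.6% than JCHAIN. MS4A1, with an SD of 0.33, and CD79A, with 0.20, were close to ordinary probes in this respect, with 60.4% and 32.7% below them. The values of PTPRC and MS4A1 on P18 arrays enter these SDs without being above background.

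Of 14 relations between animals, 2 passed the adjusted threshold by Pearson's r. After each group's mean was subtracted, IGHM and JCHAIN varied together over the 12 animals, with Pearson's r = 0.86 (exact permutation p = 0.00615, adjusted p = 0.043) and Spearman's rho = 0.87 (exact permutation p = 0.00434, adjusted p = 0.0608). Arrays were permuted within groups, two-sided, and p-values were adjusted over those 14 relations, which left out MS4A1. Each array was permuted on its own, although same-numbered P15 and NP15 arrays, which share a slide column, deviated together. The permutation p-values do not take that into account. Without replicates 1 and 4 of P18, the animals farthest from the median of IGHM, r was 0.74, and within the slide of P15 and NP15 it was 0.67 (n = 8). PTPRC was set against the others only in P15 and NP15, where it was measured above background. Its r with IGHM was 0.90 over these 8 animals (exact permutation p = 0.00347, adjusted p = 0.043), with rho = 0.90 (exact permutation p = 0.0104, adjusted p = 0.0682), and r = 0.75 without replicate 4 of each group. No rank correlation passed the adjusted threshold, and the other 12 relations had adjusted p-values of 0.0583 or more by Pearson's r. Among these, CD79A with IGHM had r = 0.72 (exact permutation p = 0.0166, adjusted p = 0.0583) and rho = 0.78 (exact permutation p = 0.0146, adjusted p = 0.0682). That r was 0.67 without replicates 2 and 4 of NP15 and 0.68 within the slide of P15 and NP15. PTPRC with BLK had r = 0.66 (exact permutation p = 0.0208, adjusted p = 0.0583) and rho = 0.50 (exact permutation p = 0.163, adjusted p = 0.243). This r rests on replicate 4 of P15 and of NP15, since it was −0.07 without them.

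**Figure D3:**
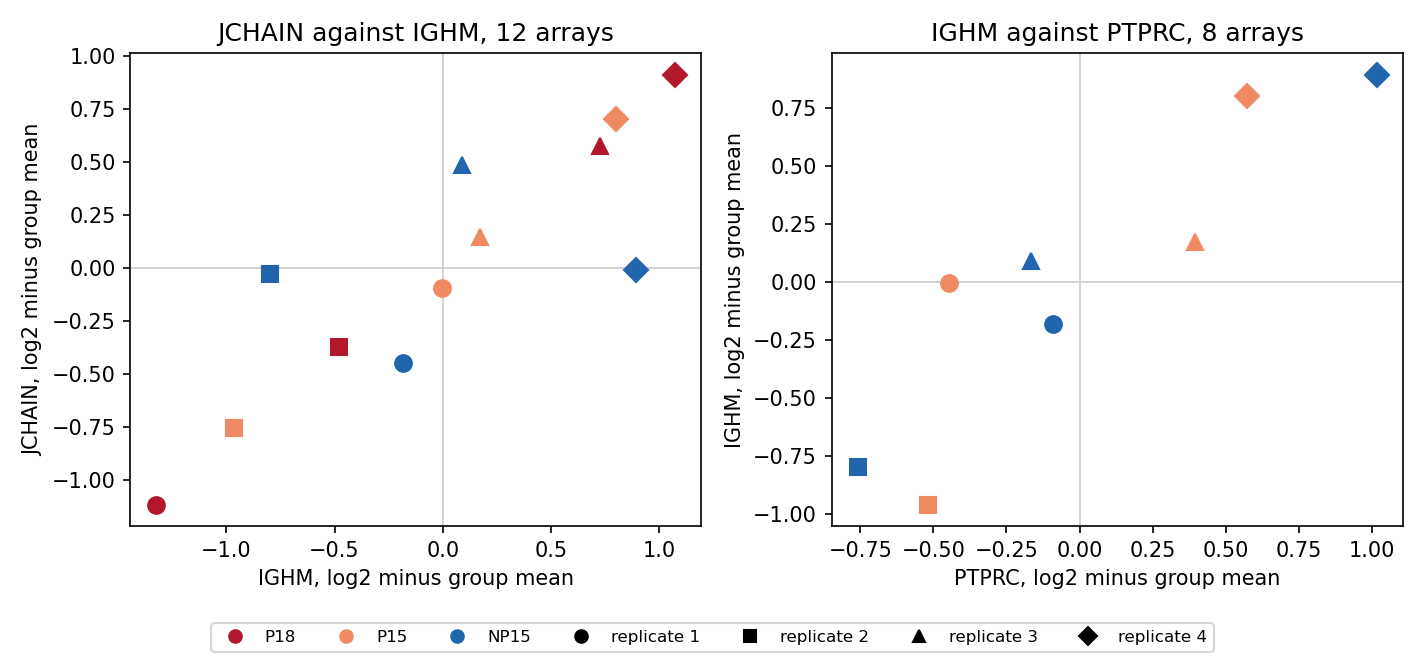
Deviation of each animal from its group mean, in log2 units, for JCHAIN (y axis) against IGHM (x axis) in 12 animals at the left, and for IGHM (y axis) against PTPRC (x axis) in the 8 P15 and NP15 animals at the right. Symbols stand for replicate numbers and colours for groups; the points follow a rising line, with r = 0.86 and r = 0.90.

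The same replicate number was often the highest one. Replicate 4 had the highest value in 13 of the 18 combinations of 6 probes and 3 groups, replicate 3 in 3, replicate 1 in 2 and replicate 2 in 0. These include groups in which PTPRC or MS4A1 was not above background. Among the 14 combinations measured above background on all 4 arrays, replicate 4 was the highest in 10, a count added after seeing the data. For IGHM replicate 4 was the highest in all 3 groups, and for PTPRC too, with its P18 values not above background. The replicate number is also the column of the slide, so the animal and its place on the slide cannot be told apart. The mean of the lists of B and plasma cell genes, pan-leukocyte genes, B cell receptor signalling genes, T and natural killer cell genes and myeloid genes was likewise highest on replicate 4 in 3 of 3 groups. The mean of the luteal steroidogenic list was lowest on replicate 4 in each group, at 4.01 in P18, 4.10 in P15 and 4.15 in NP15, where the other arrays reached up to 4.19, 4.46 and 4.67. Its genes were split in NP15. On replicate 4 LHCGR (−4.02), INHA (0.54) and FDXR (5.07) were the lowest of that group, and PTGFR and OXT lay between. CYP11A1 (6.52), FDX1 (4.32), SCARB1 (4.31), STAR (7.83) and HSD3B1 (7.83) were the highest there. STAR and HSD3B1, however, had nearly the same value as each other on every NP15 array, from 7.28 to 7.83. The 75th percentile used for scaling was lowest on replicate 4 (2867.5, against up to 4183.4 in NP15). Their order is therefore not read as a difference between animals, and saturation of these probes was not tested. Of the other lists, that of endothelial genes was highest on replicate 4 in 2 of 3 groups. Those of fibroblast and smooth muscle genes and of B cell survival, homing and immunoglobulin transport were so in 1, and that of red blood cell and platelet genes in 0.

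**Figure D4:**
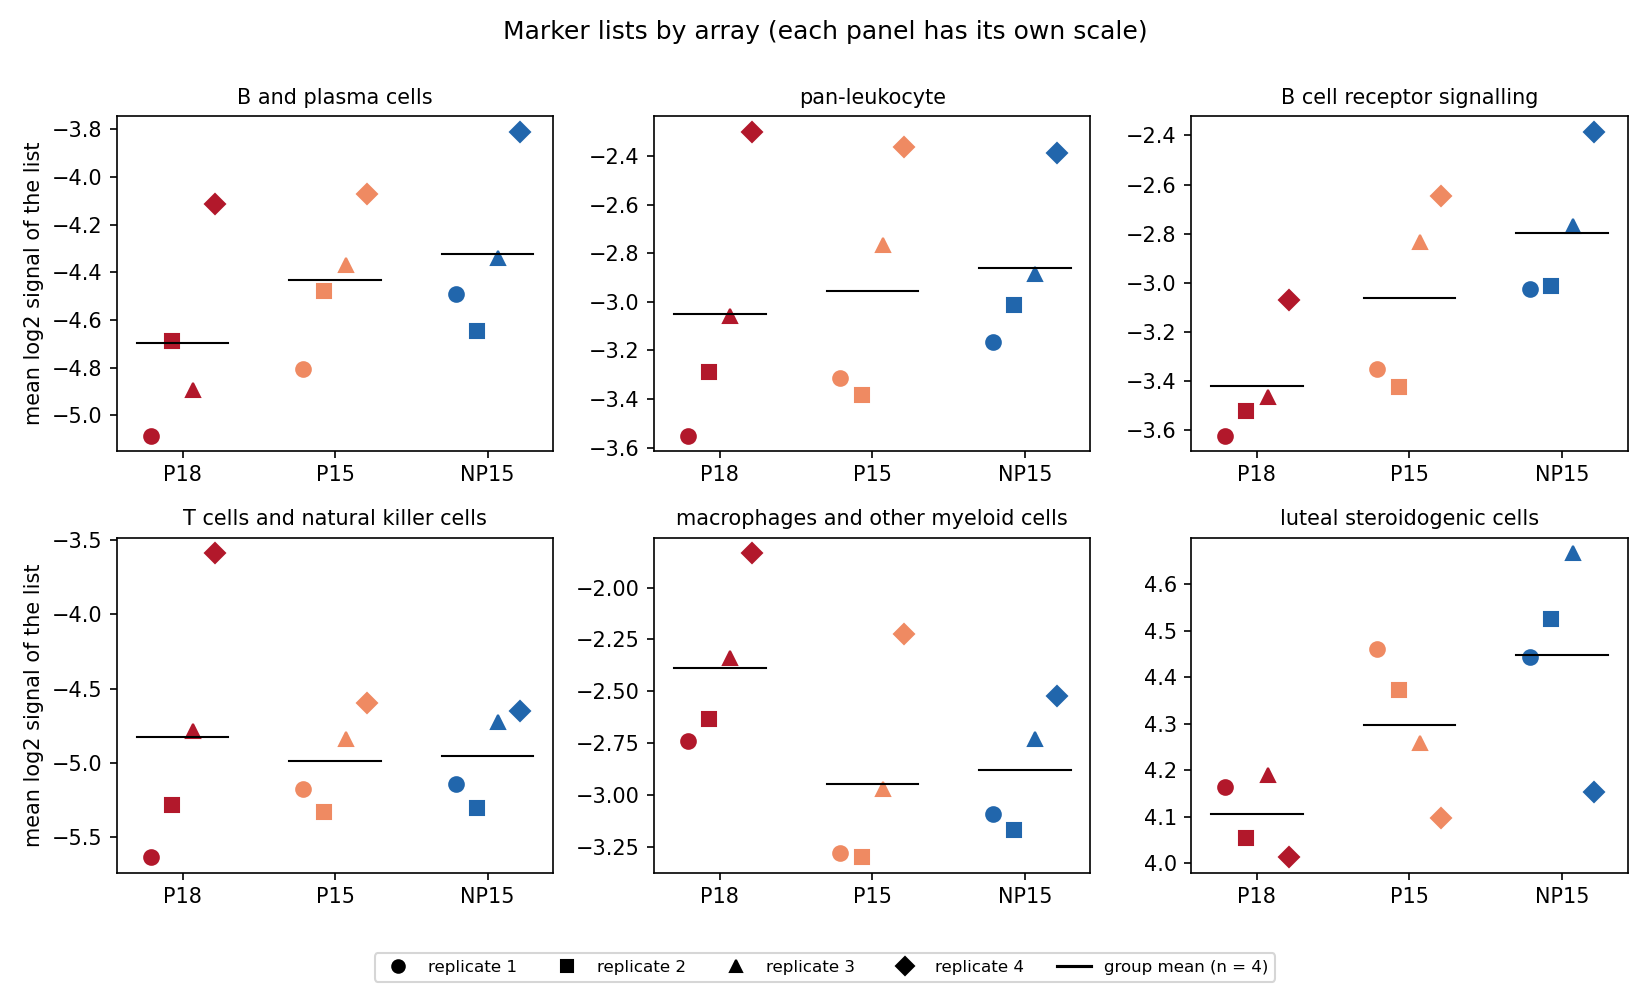
Mean log2 signal of 6 marker lists (y axis, a separate scale in each panel) on each array of P18, P15 and NP15 (x axis), with replicates as symbols and the group mean as a line. Replicate 4 is highest in every group of the 5 leukocyte panels and lowest in every group of the luteal panel. The leukocyte means include probes not above background on P18 arrays.

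The probes whose values followed a member most closely over the 12 arrays, after group means were subtracted, were sought among 5107 named probes well above background throughout. IGHM was followed by C2 (complement component 2, r = 0.95), FCER1G (the gamma subunit of Fc receptors, r = 0.94), ADCY7 (r = 0.93), PSMB8 (an immunoproteasome subunit, r = 0.92) and MRPS10 (r = 0.91). JCHAIN was followed by BOLA-DMA (a class II antigen-loading chain, r = 0.96), B2M (the class I light chain, r = 0.92), CYTH4 (r = 0.91), LOC504548 (r = 0.88) and C2 (r = 0.86). CD79A was followed by GRK3 (r = 0.94), AQP2 (r = 0.93), MYD88 (r = 0.93), VWA7 (r = 0.92) and AP5B1 (r = 0.92). BLK was followed by GPR84 (r = 0.94), SDS (r = 0.91), IBSP (r = 0.90), OLR1 (r = 0.89) and TLR4 (r = 0.87). Of these 4 sets, that of BLK leaned most on single animals, with r for GPR84 at 0.77 without replicate 4 of P15 and of NP15. PTPRC and MS4A1 were above background on too few arrays for this search. These are the closest of many probes and are given as a description.

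Further immunoglobulin probes were found by their descriptions. Of 8 such probes, 6 were tested, in part with values not above background. None was called between P18 and P15 or between P15 and NP15, beside 29% and 0.976% of all probes. The IgG3 heavy chain probe ranged from −8.38 to −3.58 in P18, from −9.03 to −4.78 in P15 and from −7.85 to −5.39 in NP15, in part not above background. The IgG1 heavy chain probe, IGG1C, was above background on all 12 arrays and also varied widely, with values of −6.01, −2.01, −1.84 and −2.28 in P18, −2.49, −5.85, −4.29 and −1.62 in P15, and −3.56, −3.14, −3.13 and −3.98 in NP15. Its pregnant groups thus spanned the range of the NP15 animals on both sides. Its log2 difference was 0.42 for P18 against NP15 (95% interval −1.83 to 2.67, limma adjusted p = 0.791). Its deviations followed those of JCHAIN with r = 0.76 (exact permutation p = 0.0173, adjusted p = 0.0583, n = 12; rho = 0.62, exact permutation p = 0.102, adjusted p = 0.243), and r was 0.65 without replicates 1 and 4 of P18 and 0.75 within the slide of P15 and NP15. The IgE heavy chain probe passed the threshold with a log2 difference of 1.39 for P18 against NP15 (SE 0.44, limma adjusted p = 0.0338). Of all probes, 11.2% were called higher there. It was above background on 1 of 4 P18 arrays and 3 of 4 NP15 arrays, and was tested through NP15 alone. Its other P18 values lay under the lowest signal well above background of their own arrays, so no measured rise is shown. A probe described only as IgM, LOC444876, had a log2 difference of −0.80 for P18 against NP15 (limma adjusted p = 0.182), beside −0.24 for IGHM. LOC444876 was above background on 1 of 4 P18 arrays and 4 of 4 NP15 arrays, and IGHM on all 12 arrays.

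Other genes of the same cells gave few calls. Of 26 B and plasma cell genes listed, 8 were on the array, with 9 probes, of which 8 were tested. None was called between P15 and NP15 or between P18 and P15, and 1 was lower in P18 than in NP15, beside 18.7% of all probes. This was SPIB, a transcription factor of B cells and plasmacytoid dendritic cells, with −1.11 (SE 0.37, limma adjusted p = 0.0424) and no P18 array above background, so that no fold is given. SDC1, the plasma cell surface proteoglycan also carried by epithelia, had −0.78 (limma adjusted p = 0.0859). POU2AF1, a B cell coactivator, was not above background on any array. The median difference of the list was −0.34 for P18 against NP15, −0.32 for P18 against P15 and −0.05 for P15 against NP15. Those of all probes tested were −0.06, −0.03 and −0.06. The list medians include values not above background.

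Of the 12 pan-leukocyte probes, 2 passed the threshold with lower values in P18 than in NP15, and 2 than in P15, beside 18.7% and 15.6% of all probes, but neither of the genes was measured in P18. ITGAL, the alpha chain of the integrin LFA-1, differed by −1.37 from NP15 (SE 0.20, limma adjusted p = 0.000585). HCLS1, a cortactin-like substrate of leukocyte kinases, differed by −1.69 (SE 0.29, limma adjusted p = 0.00148). Each was above background on 0 of 4 P18, 2 of 4 P15 and 4 of 4 NP15 arrays, and so was tested through NP15 alone, where it was high. Their bounds are under 1-fold, so no measured fall is shown. The median of this list was −0.06 for P18 against NP15, beside −0.06 for all probes. The list mean ranged from −3.55 to −2.30 in P18, from −3.38 to −2.36 in P15 and from −3.16 to −2.39 in NP15.

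Of the 9 B cell receptor signalling probes tested, 1 was higher and 4 were lower in P18 than in NP15, 1 was higher and 2 lower in P18 than in P15, and 0 were called between P15 and NP15. Of all probes, 11.2% were higher and 18.7% lower in P18 than in NP15, and 13.5% were higher and 15.6% lower in P18 than in P15. RASGRP3, an activator of Ras, fell in P18 by 1.70 on the log2 scale relative to NP15 (SE 0.21, limma adjusted p = 0.00022) and CSK, the kinase that restrains Src-family kinases, by 1.56 (SE 0.21, limma adjusted p = 0.000329), both measured on all 12 arrays. BCL10, an adaptor upstream of NF-kappaB, rose by 0.45 (SE 0.12, limma adjusted p = 0.0133). SYK, the kinase that CD79A recruits, is one of the 4, with −0.99 (limma adjusted p = 0.03), but it was above background on 0 of 4 P18, 2 of 4 P15 and 4 of 4 NP15 arrays. It was thus tested through NP15 alone, and with a bound under 1-fold no measured fall is shown. RASGRP3, CSK and BCL10 are also expressed outside B cells. Of 8 probes tested for B cell survival, homing and immunoglobulin transport, 1 was lower in P18 than in NP15 (CD40, the costimulatory receptor, −0.61, limma adjusted p = 0.038), 2 were lower in P18 than in P15, and 0 were called between P15 and NP15.

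Markers of other cells were also compared, beside 11.2% of all probes higher and 18.7% lower in P18 than in NP15, and their part in the values above was not tested. Of 17 T and natural killer cell probes, 3 were higher and 0 lower in P18 than in NP15, and of 13 myeloid probes 1 was higher and 0 lower. Relative to P15 these counts were 1 and 0, and 4 and 0, beside 13.5% of all probes higher and 15.6% lower in P18 than in P15. The myeloid list mean ranged from −2.74 to −1.83 in P18, from −3.30 to −2.23 in P15 and from −3.17 to −2.52 in NP15. Of 11 endothelial probes, 0 were higher and 4 lower in P18 than in NP15, and of 9 fibroblast, pericyte and smooth muscle probes 0 were higher and 4 lower. Of the 10 luteal probes, 1 was higher and 3 were lower. HBA, of red blood cells, was above background on 1 of 4 P18 arrays, 0 of 4 P15 arrays and 3 of 4 NP15 arrays. ALAS2, the erythroid enzyme of haem synthesis, was higher in P18 by 0.49 than in NP15 (limma adjusted p = 0.0142) and by 0.54 than in P15 (limma adjusted p = 0.00919), the 1 call among 4 red blood cell and platelet probes in each comparison.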

How the data were processed

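RNA from 12 corpora lutea (4 animals a group, per the labels) was hybridised to 1-colour arrays. The authors extracted linear spot intensities with Agilent Feature Extraction 9.5, per the submitters' processing notes, and per the file headers the processed signal is background-corrected. Values of the deposited table are on the log2 scale and match the processed signals, less 1 constant for each array, to within 1.79e-06; those constants differ from the 75th percentile by −0.0142 to −0.0076, and its column medians were −3.32 to −2.99.

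Values here are log2 processed signal minus each array's 75th percentile. Control spots, and spots marked non-uniform or population outliers, were left out. Probes well above background on at least 3 arrays of a group were kept, 12605 of 15208, and none were merged. Comparisons used lmFit and eBayes of limma 3.58.1 (R 4.3.3) on all 12 arrays (two-sided, Benjamini-Hochberg over all kept probes, threshold 0.05). The fit was tested on simulated data. The number of arrays limits the precision, and p-values measure the spread between animals. "At least" folds are bounds against the lowest signal well above background.

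Names came from accessions (2514 probes), gene numbers (2074), symbols (1295), older symbols (287) or descriptions (910), matched to RefSeq's table of ARS-UCD2.0, used for names only; 8128 probes were not matched. PTPRC and JCHAIN carry their older symbols, cd45 and IGJ, and MS4A1 and BLK their gene numbers with the descriptions CD20 and BLK. Named genes are every member; from each of 10 lists up to 3 genes with the smallest p for P18 against NP15 and up to 2 for P15 against NP15, of which those that results turn on are printed; and the 5 probes most like each member. IGG1C, the other immunoglobulin probes and POU2AF1 were added after their values were seen. The result of 1 listed gene is not reported here. Same-numbered P15 and NP15 arrays, which share a slide column, deviated together in all 4 pairs (correlations of 0.127 to 0.319 over probes), so for that comparison the fit with the replicate block is given beside the other; this pairing comes from the data and not from the labels. The members and lists were chosen with earlier results of these data known. Alternatives were other normalizations, normexp background correction with an offset of 50, filters and groups in the fit. Others were kept spots, the deposited table, 1 probe a gene, array rows, slide and replicate blocks, and leaving out each array.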

Additional observations from a re-analysis of the deposited data

Results flagged for a closer look

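In 2 of the 51 groups of 4 examined, 1 animal stood far from the other 3 by Dixon's ratio, the gap to the nearest animal over the whole range, taken past its 95% critical value. Chance alone passes that value in about 1 of 20 groups. BLK in P15 had a ratio of 0.898, with replicate 4 at −2.99 and the next animal at −5.19. IGG1C, the IgG1 heavy chain probe, had a ratio of 0.894 in P18, where replicate 1 was at −6.01 and the nearest animal at −2.28. The same P18 animal had the lowest IGHM and JCHAIN values of its group. It also had the lowest PTPRC value, but PTPRC was not above background on any P18 array.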

How the results depend on the processing

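Of 404 recomputed differences of the 6 probes, 381 kept their direction and their side of the threshold. PTPRC stayed lower in P18 than in NP15 in all 22 alternatives that tested it (−2.85 to −1.003, limma adjusted p 0.000557 to 0.015), and for P18 against P15 it was lost only in the 4 fits without an array given above (−1.68, −1.62, −1.60 and −1.63). Between P15 and NP15, the 0 member calls held throughout, while the 123 probes called became 65 with those groups alone, 39 with local row adjustment, 75 with the replicate block and 62 to 121 without single arrays. For P18 against NP15 the member count was 0 among probes above background on all 12 arrays, 2 with local row adjustment and 1 to 2 without single arrays. For P18 against P15 it was 1 with normexp, 0 among probes above background throughout, 1 with those groups alone and 1 to 2 without single arrays, since MS4A1 or PTPRC then dropped out; without a filter 5506 probes were called, against 3659. Signs turned only in uncalled differences. For P15 against NP15 these were BLK without P15 replicate 4 (−0.44; range without single arrays −0.44 to 0.39), CD79A without NP15 replicate 4 (0.11; −0.11 to 0.11) and JCHAIN without P15 replicate 2 (0.051; −0.43 to 0.051). For P18 against NP15 they were BLK with median centring (0.012), normexp (0.0056) and without NP15 replicate 4 (0.0098; −0.42 to 0.0098), IGHM without NP15 replicate 4 (0.057) or P18 replicate 1 (0.20; −0.60 to 0.20), and MS4A1 with normexp (−0.036). For P18 against P15 they were BLK without P15 replicate 4 (0.21; −0.61 to 0.21) and IGHM without P15 replicate 2 (−0.12), P18 replicate 3 (−0.044) or P18 replicate 4 (−0.16; −0.16 to 0.64). Where not stated, the cause was not tested. Median centring moved the median of all probes by 0.24 for P18 against NP15 and by 0.23 for P18 against P15, and with it JCHAIN was called in the second (1.23, limma adjusted p = 0.049). Same-numbered arrays of P18 and of the other groups deviated with correlations of −0.09 to 0.21, so the numbers were not taken to pair those animals; with the replicate block JCHAIN was called for P18 against P15 (1.00, limma adjusted p = 0.0392), and no other member call changed. A slide block equals the fit without it for P15 against NP15 and could not be fitted for P18.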
